A study of Mus musculus with 3 samples.

Results

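Of the 3608 regions called on the Stringent array of mouse olfactory receptor loci, 1805 (50.03%) lay 1 to 10 kb downstream of a named receptor promoter position. A region was taken when it contained none of the 1085 named positions and its middle lay 1001 to 10000 bp from the nearest one, on the downstream side by the strand given for that position. The choice therefore used the Stringent calls themselves, and distance, Stringent score and the number of regions are given as description. The other Stringent regions comprised 629 that spanned a named position, 443 within 1 kb downstream, 237 at 1 to 10 kb upstream, 14 within 1 kb upstream, 476 beyond 10 kb and 4 on chromosomes with no named position.

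The study captured the 5′ ends of olfactory receptor transcripts and read them on tiling arrays, which carry short probes at close spacing along a locus. For each of the 3 samples, epithelia from 5 adult animals of strain C57/Bl6, 6 to 8 weeks old, were pooled, with no treatment or altered genotype in the labels. RNA ligase-mediated rapid amplification of cDNA ends (RLM-RACE) attaches an adapter to capped 5′ ends, and reverse transcription here began from degenerate primers placed in receptor coding sequence. The product was amplified by nested PCR for the 1 Stringent array and by PCR without nesting for the 2 High Coverage arrays. The file headers name the input of High Coverage 1 as female and that of High Coverage 2 as male, so that array and sex cannot be told apart. No control array was analysed here, and with 1 array against 2 no test between the preparations was run. The arrays cover receptor loci, so markers of the epithelium's cell types were not analysed here.

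Olfactory receptors are odorant-binding membrane proteins, and a mature olfactory neuron expresses a single receptor gene out of a very large family. A typical receptor gene has its whole coding sequence in an uninterrupted exon, preceded by short noncoding exons and introns that can place the transcription start some kilobases upstream. A cDNA that starts from a primer in coding sequence and ends at the cap can therefore hold the first part of the coding sequence together with the noncoding exons. Whether a given region is a noncoding exon or a coding start was not determined, because no gene annotation of the mouse build of these files (mm9) was used here.

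The coding starts of 7 receptors with strong regions are printed to show what the beginning of these coding sequences looks like, since the primers were placed in coding sequence. They are 50 bases each from the RefSeq gene start on build GRCm38.p6, written 5′ to 3′. Capitals mark the start codon ATG and any match to the letters GANTTTNT, in which N is any base.
Olfr1239, chr2:89418362-89418411, minus strand: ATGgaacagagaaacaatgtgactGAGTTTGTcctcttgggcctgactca
Olfr205, chr16:59329458-59329507, minus strand: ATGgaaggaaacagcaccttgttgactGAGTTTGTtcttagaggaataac
Olfr726, chr14:50084630-50084679, minus strand: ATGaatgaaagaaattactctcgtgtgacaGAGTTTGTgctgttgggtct
Olfr1046, chr2:86217659-86217708, minus strand: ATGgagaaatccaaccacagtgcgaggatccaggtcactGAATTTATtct
Olfr1099, chr2:86959407-86959456, minus strand: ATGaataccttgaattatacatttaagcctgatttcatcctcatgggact
Olfr1228, chr2:89249643-89249692, minus strand: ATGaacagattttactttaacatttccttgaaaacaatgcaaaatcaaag
Olfr191, chr16:59086432-59086481, minus strand: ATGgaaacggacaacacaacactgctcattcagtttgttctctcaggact
Of the 860 receptor names with a region, 714 matched the RefSeq table by symbol, and 515 of these entries (72.1%) began with ATG at the listed gene start. In all 515 no stop codon followed in frame within the 50 bases. The letters GANTTTNT were chosen after these sequences were seen, and they occurred on the coding strand in 140 of the 515 (27.2%). Over all 686 receptor entries starting with ATG, which include the 515, the letters occurred in 163 (23.8%). They occurred in 11 of 99 receptors (11.1%) that had a named position but no region at 1 to 10 kb downstream, and in 481 of all 32851 entries of the table (1.46%). On the opposite strand the share was 1.17% of the 515 and 0.901% of all entries. A match is a description of letters and marks no site. Positions on GRCm38.p6 were not set against the mm9 regions.

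The regions lay mostly in the first kilobases of the band. The middle of a region was a median of 3240.5 bp from its position, with quartiles of 2139.5 and 4693 bp. Counts per kilobase were 400 at 1 to 2 kb, 412 at 2 to 3 kb, 349 at 3 to 4 kb, 257 at 4 to 5 kb, 155 at 5 to 6 kb and 146 at 6 to 7 kb. They fell off to 60 at 7 to 8 kb, 17 at 8 to 9 kb and 9 at 9 to 10 kb. The same distances upstream held between 14 and 49 regions per kilobase. Set against the number of scored probes in the band, the density was 2.20 regions per 1000 probes downstream and 0.920 upstream, a ratio of 2.39 (95% interval for counting error over regions 2.085 to 2.75). With the 50% of Stringent regions of highest score alone, on either side, the ratio was 5.20. The ratio was 6.70 at 1 to 2 kb and 5.16 at 2 to 3 kb. Between 3 and 7 kb it ran from 1.74 to 2.52, and it was below 1 in each of the last 3 kilobases (0.552, 0.267 and 0.220). Of the 237 upstream regions, 72 also lay within 10 kb downstream of another named position, and their part in these ratios was not tested. The High Coverage lists were not used to choose among the Stringent regions, but whether the named positions drew on them is not known. These lists also had the higher density downstream. Their ratios were 1.48 (1.36 to 1.60) on High Coverage 1, from 3438 regions downstream and 730 upstream, and 1.51 (1.38 to 1.65) on High Coverage 2, from 3014 and 627.

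**Figure D1:**
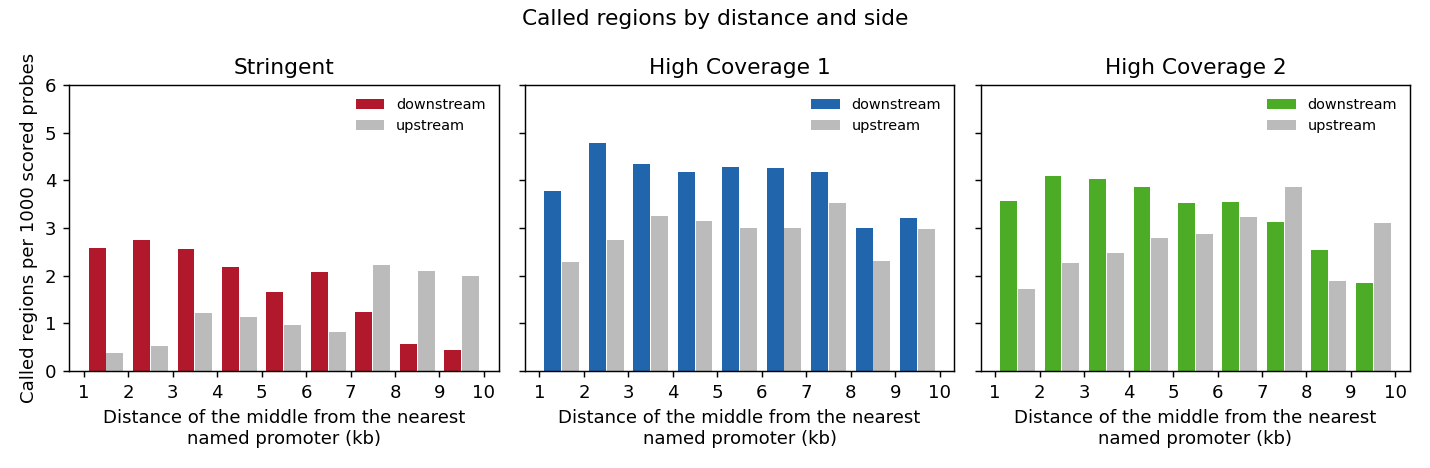
Called regions per 1000 scored probes (y axis) by distance of their middle from the nearest named promoter position in kilobases (x axis), downstream (coloured) and upstream (grey), in 1 panel per array. On Stringent the downstream density exceeded the upstream density from 1 to 7 kb and lay below it from 7 to 10 kb, while on High Coverage 1 it was higher downstream in every bin and on High Coverage 2 in every bin but 7 to 8 and 9 to 10 kb.

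The bounds of the band cut through a continuous set of regions. Just inside the lower bound, Olfr894 had a 532 bp region at 1001 bp with a Stringent score of 20.9. Just outside it, Olfr875 had a region at 1000 bp with a score of 15.4. At the far end, the last regions inside were a tie at 9665.5 bp, of Olfr44 (129 bp, Stringent score 2.81) and of Olfr1467 (291 bp, score 8.00). The first outside belonged to Olfr679 at 10173.5 bp (score 6.56).

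The lengths had a short and a long peak. The median length was 313 bp (quartiles 181 and 551 bp, range 30 to 1630 bp), against 265.5 bp over all Stringent regions. Lengths from 500 to below 600 bp were taken by 459 regions (25.4%), and only 32 fell between 400 and 450 bp. The range from 500 to below 600 bp held 10.8% of regions that spanned a position, 11.8% of regions at 1 to 10 kb upstream and 7.00% of regions within 1 kb downstream. The longest region was 1630 bp at Olfr167 and the shortest was 30 bp at Olfr1225. No test of these shares was run.

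The Stringent score of a region is the authors' MAT score, which standardises each probe by its sequence and combines neighbouring probes. It has no unit and is relative to the probes of its own array. The authors called regions per array, at thresholds of 2.52 for Stringent and of 2.53 and 2.99 for the 2 High Coverage arrays. The median score of the regions was 10.57 (quartiles 4.17 and 17.19), against 8.12 over all Stringent regions, 5.02 at 1 to 10 kb upstream and 12.81 for regions that spanned a position. The regions made up 56 of the 100 highest-scoring Stringent regions and 624 of the 1000 highest-scoring (62.4%). Across the 1805 regions of this single array, score went with length (Spearman's rho 0.86) and hardly with distance (rho -0.0068). Both score and length come from the same probes, and regions of a promoter are not independent.

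**Figure D2:**
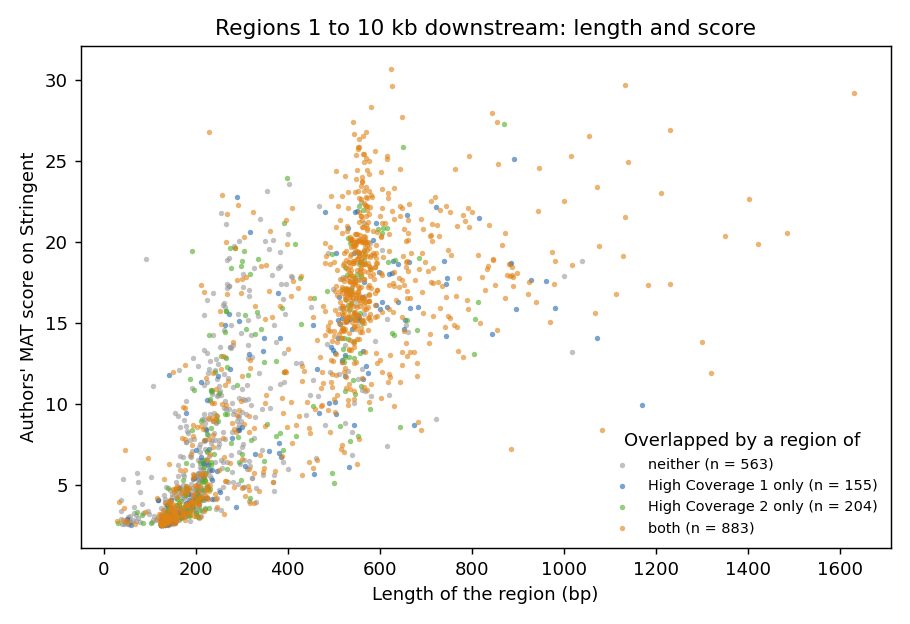
Length of each region in bp and its Stringent score (authors' MAT score, no unit) for the 1805 regions, with colours for overlap by neither, 1 or both High Coverage arrays. Lengths from 500 to below 600 bp hold 459 regions, and short regions with scores below 5 form the other dense part.

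Most named promoters had such a region, and more than 1 was common. Of the 1085 positions, 901 (83.0%, exact 95% interval 80.7 to 85.2%) had at least 1. There were 401 positions with 1 region, 261 with 2, 134 with 3, 63 with 4, 29 with 5 and 13 with 6 or more, up to 9 at Olfr1339. Thus 500 of the 901 (55.5%, 52.2 to 58.8%) had 2 or more. Part of this number came from calls that touch: of 904 neighbouring pairs at a promoter, 203 (22.5%) were 1 bp apart and 294 (32.5%) less than 100 bp apart. With regions less than 100 bp apart joined, a step chosen after seeing the data, there were 1511 stretches and 408 of the 901 promoters (45.3%) had 2 or more, with at most 5. With the 50% of Stringent regions of highest score alone, 31.2% of the promoters with a region had 2 or more. The gap between stretches was a median of 961.5 bp.

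A region at 1 to 10 kb downstream was more frequent where the position itself had signal on the same array. Of 669 positions with a Stringent region within 100 bp, 602 (90.0%, 87.5 to 92.2%) had one, against 299 of 416 positions (71.9%, 67.3 to 76.1%) with none within 100 bp. Class I receptors, the fish-like family clustered on chromosome 7 in mouse, had one at 72 of 106 positions (67.9%, 58.2 to 76.7%). Class II receptors, the larger family spread over many chromosomes, had one at 799 of 928 (86.1%, 83.7 to 88.3%). Positions given to unannotated pseudogenes had one at 30 of 51 (58.8%, 44.2 to 72.4%). These shares come from 1 array and were not tested. In pooled tissue, more neurons using a receptor and more RNA per neuron cannot be told apart. Of the 184 positions without a region in the band, 62 had a Stringent region over the position, 45 had one within 1 kb downstream and 103 had neither.

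At a typical promoter the highest-scoring region was a long one, with short and weaker regions beside it. The highest-scoring regions of the 901 promoters had a median length of 543 bp (448 to 592 bp) and a median score of 16.38. The other 904 regions had medians of 202.5 bp and 4.84. Score chose the first set, so these medians are a description. Of the 500 promoters with 2 or more regions, the highest-scoring was the farthest from the position in 262 (52.4%) and the nearest in 125 (25%). Among the 261 promoters with exactly 2, the farther region scored higher in 167 (63.98%). The highest-scoring region lay a median of 3354 bp from its position (2294 to 4847.5 bp). By class the median distance was 3725 bp for class I, 3331 bp for class II and 3320.75 bp for pseudogenes. By chromosome it was 2735 bp on chromosome 9 (111 promoters), 2910.75 bp on chromosome 16 (34 promoters) and 4532 bp on chromosome 17 (29 promoters).

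The High Coverage calls were not used to choose among the Stringent regions. How the named positions were chosen is not given, so whether they drew on the High Coverage arrays is not known. High Coverage 1 had an overlapping region, by at least 1 bp, at 1038 of the 1805 (57.5%, 55.2 to 59.8%), where the share over all 3608 Stringent regions was 50.8%. High Coverage 2 overlapped 1087 (60.2%, 57.9 to 62.5%), against 55.4% over all. Both arrays overlapped 883 (48.9%, 46.6 to 51.3%), against 42.4%, and at least 1 overlapped 1242 (68.8%, 66.6 to 70.9%), against 63.8%. Neither overlapped 563 (31.2%), against 36.2%. The background includes the regions themselves. With at least 50% of the region covered, High Coverage 1 reached 35.5%, High Coverage 2 42.2% and both 27.8%, and with 50% of both regions 32.3%, 36.7% and 23.3%. Shares over all Stringent regions under these stricter rules were not computed, and those given above are for overlap by at least 1 bp. For regions at 1 to 10 kb upstream, at least 1 array overlapped 51.5%, and for regions that spanned a position 62.0%. These groups differ in length and Stringent score. The medians were 313 bp and 10.57 for the 1805, 265.5 bp and 8.12 over all, 204 bp and 5.02 upstream, and 319 bp and 12.81 for spanning regions. No share matched for length or score was computed.

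**Figure D3:**
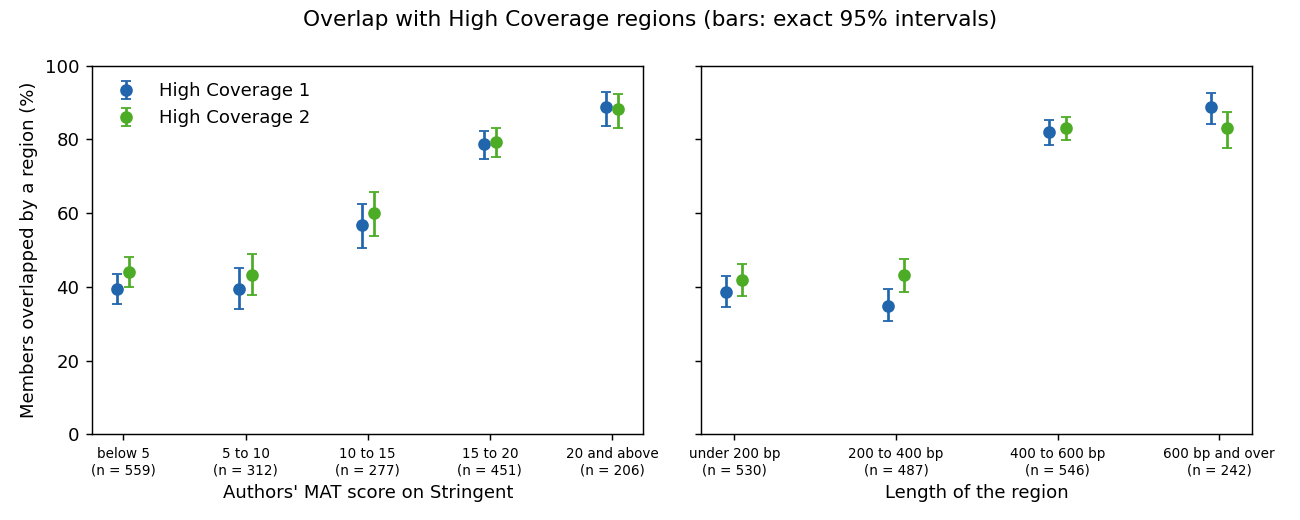
Percent of the 1805 regions overlapped by a High Coverage 1 or 2 region (y axis), by Stringent score (left, MAT score, no unit) and by length in bp (right), with exact 95% intervals for counting error over regions. By score the share on High Coverage 1 runs from 39.4% below 5 to 88.8% at 20 and above, and by length it steps from 34.9% at 200 to 400 bp to 82.05% at 400 to 600 bp.

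Overlap went with length within each range of Stringent score that held both classes. Of 788 regions of 400 bp and over, High Coverage 1 overlapped 84.1% and High Coverage 2 83.1%, and 60 (7.61%) had neither. Of 1017 regions under 400 bp, the shares were 36.9% and 42.5%. Over all Stringent regions, High Coverage 1 overlapped 50.8%, High Coverage 2 55.4% and neither array 36.2%. Among regions with a Stringent score of 15 and over, High Coverage 1 overlapped 36.5% of 85 short regions (26.3 to 47.6%) and 88.6% of 572 long regions (85.7 to 91.1%). On High Coverage 2 the same groups gave 49.4% and 87.1%. At scores of 10 to 15, High Coverage 1 overlapped 30.4% of 112 short regions (22.0 to 39.8%) and 74.5% of 165 long regions (67.2 to 81.0%). A longer region offers more bases to overlap, so the mean probe score over each region was also taken. The median of this mean at scores of 15 and over was at percentile 65.8 of High Coverage 1 probes for short regions and 95.5 for long ones, and at percentile 81.4 and 95.5 on High Coverage 2. A percentile here places a value among all scored probes of that array. No test was run, since the regions share 3 arrays.

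The weaker regions also differed by where they lay relative to the highest-scoring region of their promoter. Of the 904 other regions, 588 lay nearer the promoter position and 316 farther. The nearer ones had the higher Stringent score (median 5.89 against 3.80) and the greater length (214 against 174 bp). On High Coverage the order was the opposite: High Coverage 1 overlapped 28.7% of the nearer and 55.1% of the farther regions, and High Coverage 2 overlapped 35.5% and 57.0%. Over all Stringent regions the 2 shares were 50.8% and 55.4%, so the farther regions lay near them and the nearer ones below. In regions under 400 bp, at least 1 High Coverage array overlapped 40.6% of 552 nearer and 59.8% of 261 farther regions. Over all Stringent regions, of any length, that share was 63.8%. Of 904 neighbouring pairs of regions at a promoter, 203 were 1 bp apart, and a single High Coverage region can overlap both of a pair. Touching regions were kept here, and their part in this order was not tested. The preparations differ in PCR nesting, array and animals, and the part of each in this order was not tested either.

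The highest probes of the regions were compared between the arrays. The highest probe of a region was at a median percentile of 96.1 on High Coverage 1 and 95.9 on High Coverage 2, against 95.02 and 95.21 over all Stringent regions. The median difference between the percentiles of a region on the 2 arrays was 2.22 points in size, with 970 regions higher on High Coverage 1 and 835 on High Coverage 2. Across the 1805 regions, the percentiles of the 2 arrays had a Spearman's rho of 0.78, and Stringent score had 0.51 with High Coverage 1 and 0.50 with High Coverage 2. The regions were chosen as Stringent calls, so that their Stringent scores have a lower bound, and the coefficients are not comparable. Of the 500 promoters with 2 or more regions, High Coverage 1 and 2 had their highest probe in the same region at 405 (81.0%). The region with the highest Stringent score (the authors' score of the region) held the highest High Coverage 1 probe at 358 (71.6%, 67.4 to 75.5%). It held the highest High Coverage 2 probe at 373 (74.6%). A longer region offers more probes, and the part of length in these percentiles and shares was not tested. The median number of probes was 57 in the 1805 regions and 43 over all Stringent regions. By the mean probe score, the median percentiles were 83.3 and 87.0 on High Coverage 1 and 2, against 79.5 and 85.3 over all.

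Along the long regions the arrays had unlike shapes. The 788 regions of 400 bp and over were divided into 10 equal parts from the 5′ to the 3′ end. The median Stringent score was between 13.4 and 14.3 from the third to the eighth part, a flat top. On High Coverage 1 the median rose from 0.70 in the third part to 2.93 in the eighth. On High Coverage 2 it peaked at 4.11 in the fourth part, dropped to 1.77 in the seventh and was 2.36 in the ninth. The highest High Coverage 1 probe lay 5′ of the middle in 241 of the 788 (30.6%, 27.4 to 33.9%), and the highest High Coverage 2 probe in 417 (52.9%, 49.4 to 56.5%). In the same region, the High Coverage 1 peak was nearer the 3′ end than the High Coverage 2 peak by at least 10% of the length in 268, and nearer the 5′ end in 114. The remaining 406 pairs of peaks lay within 10% of the length. With 1 array of each, this difference cannot be told apart from sex, pool or hybridisation.

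**Figure D4:**
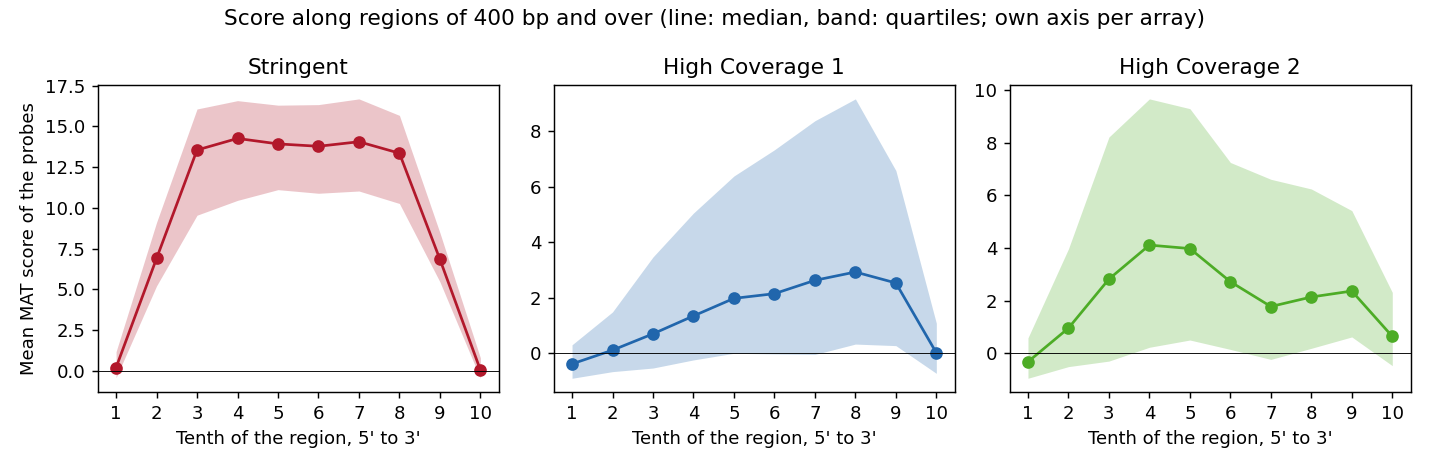
Mean MAT score of the probes (y axis, no unit, own axis per array; line, median over regions; band, quartiles) in 10 equal parts of the 788 regions of 400 bp and over, from the 5′ to the 3′ end (x axis). Stringent is flat across the middle, High Coverage 1 rises to 2.93 in the eighth part and High Coverage 2 peaks at 4.11 in the fourth.

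At the 5′ end of long regions, the High Coverage call mostly began inside the Stringent call, while at the 3′ end its edge lay on either side. Where several High Coverage regions overlapped the same long region, their outermost edges were taken. A single region overlapped 66.1% of the long regions with a call on High Coverage 1 and 62.1% on High Coverage 2. In 663 long regions overlapped by High Coverage 1, the High Coverage call began a median of 93 bp inside the Stringent 5′ edge (quartiles 26.5 and 235.5 bp). In 655 overlapped by High Coverage 2 it began 41 bp inside (5 and 158 bp). At the 3′ end the median difference was -5 bp for High Coverage 1 (quartiles -50 and 10 bp) and 0 bp for the other array (-72.5 and 134 bp), where negative values lie inside. From 250 to 300 bp beyond the 3′ edge, the median score was 0.33 on High Coverage 1 and 0.79 on High Coverage 2, above the medians of all scored probes (-0.49 and -0.53). Stringent at that place was -0.95, below its own median of -0.73. As far outside the 5′ edge, the medians were -0.50, -0.47 and -0.68. The thresholds of the lists differ, and their part in the edges was not tested.

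The regions strongest on both High Coverage arrays lay on 3 chromosomes. By the lower of the 2 percentiles, the first 10 belonged to Olfr1099, Olfr727 (2 regions), Olfr193, Olfr726, Olfr1507, Olfr1046, Olfr166, Olfr725 and Olfr191 and lay on chromosomes 2, 14 and 16. The region of Olfr1099 (mm9 chr2:86799145-86799697, 1407 bp downstream) had a highest probe score of 25.7 on Stringent, with 41.5 and 35.4 on High Coverage 1 and 2. That of Olfr193 (chr16:59109959-59110607, 1462 bp) gave 27.7, 40.1 and 41.2. Both lay within 2 kb of their positions, while that of Olfr726 (chr14:50703874-50704455) lay 6500.5 bp away with 22.9, 35.2 and 35.2. Olfr727 had its strong regions at 2010.5 bp (22.1, 35.1 and 37.6) and at 3842 bp (20.3, 45.3 and 35.2). The region of Olfr166 at 3015 bp stood apart in rank: its Stringent score of 14.5 was only rank 1101 of 3608, yet it had 46.7 on High Coverage 1 and 28.4 on High Coverage 2. Scores are on each array's own scale, so only ranks within an array can be read.

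The 5 highest Stringent scores were found at Olfr1239, Olfr1228, Olfr711, Olfr167 and Olfr205, and all 5 regions were called on both High Coverage arrays. So were 171 of the 206 regions with a score of 20 and over (83.0%), beside 42.4% over all Stringent regions. The region of Olfr1239 (chr2:89258102-89258726, 2184 bp) had 30.7 on Stringent, with 4.45 and 11.1 on High Coverage 1 and 2. The longest region, of Olfr167 (chr16:19515255-19516885, 6210 bp), had 29.2, 4.52 and 6.48, and High Coverage regions covered 22.3% and 28.8% of it. Olfr205 at 2392 bp had 28.3, 12.3 and 14.4. On High Coverage these 5 were high but not at the top, between the 97.6 and 99.7 percentiles.

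Strong Stringent regions without any High Coverage call were few. Among the 206 regions with a score of 20 and over, 12 (5.83%) had neither array, beside 36.2% over all Stringent regions. The 5 highest were at Olfr801, Olfr1448, Olfr1497, Olfr380 and Olfr1366. The region of Olfr801 (chr10:129109220-129109622, 1527 bp) had 23.6 on Stringent, with 1.46 and 0.94 on High Coverage 1 and 2. That of Olfr1448 (chr19:12995127-12995481, 3638 bp) had 23.1, -0.05 and 1.77. Olfr1497 at 4211.5 bp had 22.5, 0.77 and 0.38 over a region of 559 bp. On High Coverage these 5 had their highest probe between the 67.7 and 91.5 percentiles on High Coverage 1 and between the 77.4 and 91.2 percentiles on High Coverage 2.

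**Figure D5:**
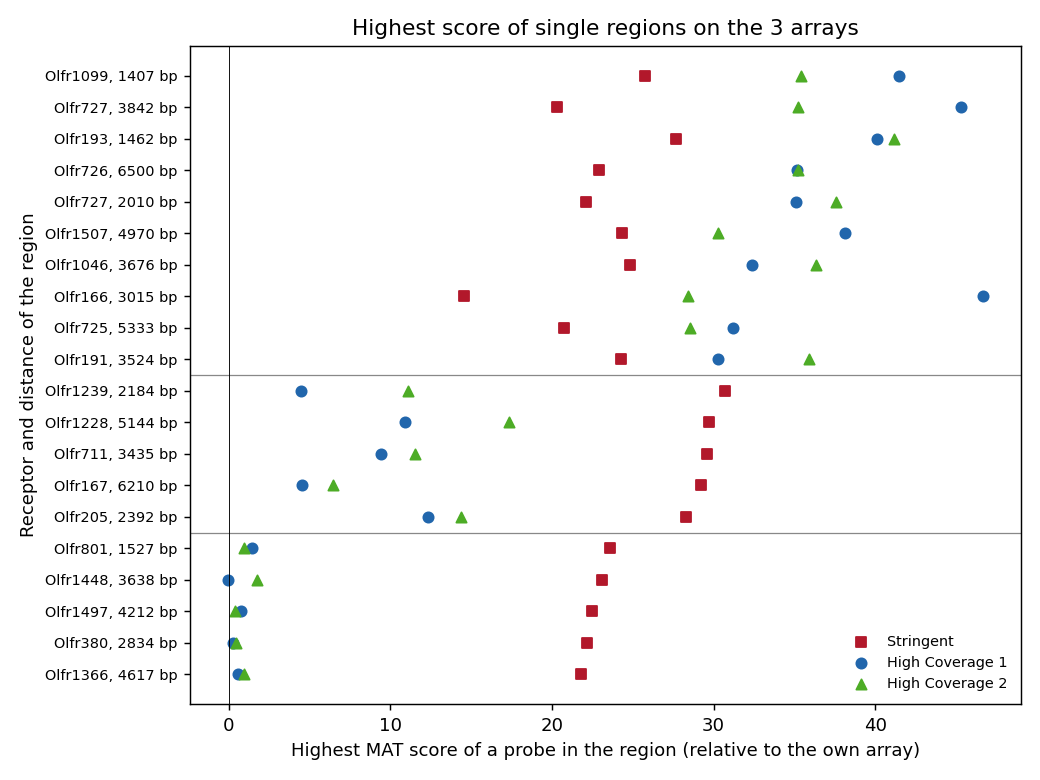
Highest probe score in each named region on Stringent, High Coverage 1 and High Coverage 2 (MAT score, no unit, each array on its own scale), for the 10 regions strongest on High Coverage, the 5 with the highest Stringent score and the 5 with the highest Stringent score and no High Coverage call. The last 5 lie between 21.8 and 23.6 on Stringent and at or below 1.77 on both High Coverage arrays.

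Promoters with the most regions showed a few strong regions among many weak ones. Olfr1339 on chromosome 4 had 9 regions between 2012.5 and 4482.5 bp. Its region at 2987 bp had 15.3 on Stringent, with 13.7 and 19.9 on High Coverage 1 and 2, and that at 4482.5 bp had 17.4, 5.95 and 11.9. The other 7 had Stringent scores of 2.71 to 5.99, and several touched their neighbour. Olfr449 on chromosome 6 had 8 regions, of which those at 2558 bp (20.4, 16.7 and 17.7) and 6216.5 bp (17.9, 28.2 and 25.3) were the strongest on all 3 arrays. Olfr32 on chromosome 2 had 6, and its 291 bp region at 4848.5 bp had 22.3, 5.59 and 29.7, a far higher rank on High Coverage 2 than on High Coverage 1. Olfr1018 and Olfr1225 also had 6 regions each.

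Receptors that have often been studied singly are given next. Of 27 such genes, 21 had a named position, and 19 of these had 48 regions between them. High Coverage 1 overlapped 26 of the 48 (54.2%), High Coverage 2 30 (62.5%), and both 24 (50%), beside 50.8%, 55.4% and 42.4% over all Stringent regions and 57.5%, 60.2% and 48.9% over the 1805. Olfr1507 (MOR28), the receptor next to the H enhancer, had its strong region at 4970 bp with 24.3 on Stringent, with 38.1 and 30.3 on High Coverage 1 and 2. It was followed by weak Stringent regions at 5313.5 bp (score 3.32) and 5552.5 bp (score 3.40), with probes up to 9.18 and 11.5 on High Coverage 1 and 11.4 and 15.9 on High Coverage 2. On both arrays these weak regions were covered in full by High Coverage regions that reached into the strong region. The neighbour of Olfr1507, Olfr1508 (MOR10), had 20.2, 29.4 and 25.8 at 4862.5 bp, followed by 3.13, 7.94 and 11.5 at 5402.5 bp. Olfr1509, a receptor for a sulphur odorant of male urine, had 18.6, 16.2 and 21.1 at 7026 bp.

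Olfr160 (M72), which responds to acetophenone, had 20.4 on Stringent, with 22.4 and 18.2 on High Coverage 1 and 2 at 4194.5 bp. Olfr2 (I7), the octanal receptor, had 22.1, 17.0 and 32.6 at 4322.5 bp. Its second long region, at 3372 bp, had 14.5, 0.88 and 0.058 and thus no High Coverage call. Olfr1440, the muscone receptor, had its strong region far from the position, at 7135.5 bp, with 17.7, 11.97 and 15.7. Olfr17 (P2) had 4 regions of 164 to 327 bp with Stringent scores of 2.78 to 5.75. None was of the long class as called, but each touched a neighbouring call, so joined stretches would be longer. All but the one at 4241 bp were overlapped on both High Coverage arrays, and that at 3489.5 bp had 5.75, 3.50 and 13.9. Of the class I receptors, Olfr78, which responds to short-chain fatty acids, had 4 regions at its 2 positions, and the region at 6112 bp had 17.1, 11.97 and 10.2. Olfr545 had a single weak Stringent region at 5804 bp, with 3.09, 5.10 and 10.98, and Olfr558 one at 1710.5 bp, with 4.65, 1.99 and 0.93.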

How the data were processed

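The authors deposited, per array, a MAT score for each probe position and a list of called regions with a score. The deposited score files were made from 1 array each with no control, with BandWidth 50, MaxGap 30 and MinProbe 5 as settings, on a natural log scale, per the file headers. The lists have a false discovery rate of 0.00 percent, and Stringent used another probe map than High Coverage, per the file headers. The submitters' processing notes name mm9 as the build. Whether the starts count from 0 or 1 and how the named positions were chosen are not given in the sources used here. A probe at exactly 0 on all 3 arrays was taken as not scored (5.42%). Median probe spacing was 5 bp, and 169 regions had fewer than 20 probes. How many sites a probe matches was not analysed here.

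Each Stringent region was assigned to the nearest named position by its middle. Overlap was at least 1 bp. Shares have exact Clopper-Pearson intervals at 95%, which cover counting error over regions, not the spread between arrays. Class I was taken as the chromosome 7 receptors so numbered in the nomenclature. Genes named are the 10 regions highest on both High Coverage arrays, the 5 highest on Stringent, the 5 highest without a High Coverage call, the 5 promoters with the most regions, the extremes and a list of 27 receptors; the lists, members and rules were chosen with earlier results of these data known. The scripts were tested on simulated data. Python 3.11.15, pandas 2.3.3 and scipy 1.17.1 were used.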

Additional observations from a re-analysis of the deposited data

How the results depend on the processing

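Of 69 alternative values, 37 stayed within the set limit and 32 moved. A change of direction was defined only for the downstream to upstream ratio, and none of its alternatives fell below 1. For the median High Coverage percentile the limit came from the 2 arrays themselves, so leaving out either array could not exceed it. The cause of a move was not tested beyond what the alternative itself removes. Keeping regions of 1 to 5 kb gave a median distance of 2747 bp, 48.2% of promoters with 2 or more regions and a downstream to upstream ratio of 3.45. Keeping the 50% of Stringent regions of highest score left 1044 regions, with a median distance of 3126.75 bp, a median length of 540 bp, 31.2% of promoters with 2 or more and a ratio of 5.20. The shares overlapped were then 71.4% for High Coverage 1, 72.8% for High Coverage 2, 81.5% for at least 1 and 62.6% for both. Requiring overlap of 50% of the region gave 35.5%, 42.2%, 49.9% and 27.8%, and of 50% of both regions 32.3%, 36.7%, 45.7% and 23.3%. Cutting each High Coverage list to as many regions as Stringent gave 47.4%, 51.6%, 59.7% and 39.3%, and keeping the 50% of it of highest score 47.6%, 49.3%, 58.8% and 38.1%. Shares over all Stringent regions under these alternatives were not computed. Leaving out each High Coverage replicate in turn gave 57.5% to 60.2% for at least 1. Joining regions under 100 bp apart, chosen after seeing the data, gave 45.3% of promoters with 2 or more. By the mean instead of the highest probe score, the median High Coverage percentile was 85.1. No paired analysis was possible because the preparations share no replicate pairs and no result comes from a test.

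Single arrays of pooled animals limit every value here: nothing separates the preparation from the array, the pool or the sex. The spread between Stringent arrays is unknown.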

Other observations

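A few named regions were low in score on Stringent and high on High Coverage. As a group, the 559 regions with a Stringent score under 5 were overlapped on both High Coverage arrays at 31.7%, below the 48.9% over the 1805 and the 42.4% over all Stringent regions. The region of Olfr44 at 9665.5 bp, 129 bp long, had 2.81 on Stringent, with 22.7 and 20.8 on High Coverage 1 and 2. The region of Olfr545 had the same pattern, with highest probes of 5.10 and 10.98 on High Coverage 1 and 2. It was covered in full by High Coverage regions with higher scores of 7.11 and 11.21. The weak regions of Olfr1507 had the pattern too, but High Coverage regions that reached into its strong region covered them in full. Those weak regions are therefore not separate High Coverage calls.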
